A study of Mus musculus with 6 samples.

Results

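Transcripts of 3 proteins that the liver secretes into plasma, Ttr, Fgl1 and Habp2, were followed in whole mouse pancreas together with 5 further genes of the same kind, Alb, Apoe, Trf, Rbp4 and Clu. The rule named 10 genes, of which 8 had an entry among the 10245 genes of the table. Apoa1 and Serpina1a were not analysed here. These genes were selected on their normalized counts in the comparison of Ptf1a cKO with control pancreata, so their values in that comparison are a description and were not tested. RNA-seq was performed on 3 control mice of the genotype Ptf1a(CreER/+) and 3 Ptf1a cKO mice of the genotype Ptf1a(CreER/fl). All 6 mice received tamoxifen by gavage at 0.25 mg/g on days 0, 1 and 2, and were killed on day 14. CreER was expressed from the endogenous Ptf1a locus and replaced that allele's function, so control mice carried 1 functional Ptf1a allele and Ptf1a cKO mice carried a floxed allele in its place. The study also describes an EYFP reporter in its tamoxifen-inducible mice. Control mice were 4 months old and Ptf1a cKO mice 5 months old, so age and genotype cannot be told apart. Control replicate 1 and Ptf1a cKO replicate 2 were male and the other 4 mice female.

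Hepatocytes make most of the protein in blood plasma. Transthyretin, encoded by Ttr, carries thyroxine and, by binding the retinol-binding protein RBP4, keeps retinol in the circulation; it is also made by the choroid plexus and by islet cells, in the mouse chiefly alpha cells. FGL1 is a secreted protein with a fibrinogen-like domain, known as a hepatocyte growth factor of regenerating liver and as a ligand of the lymphocyte receptor LAG3. HABP2 is a plasma serine protease that binds hyaluronan and cleaves factor VII and pro-urokinase. Promoters of such liver-secreted genes are known to be bound by the factors HNF4, FOXA and C/EBP, several of which are also present in the pancreas. PTF1A, the factor removed here, maintains the gene expression of acinar cells, which make the digestive enzymes.

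The targeted gene was measured first. Ptf1a was at 566, 601 and 652 normalized counts in the control libraries and at 19.8, 70.1 and 10.2 in Ptf1a cKO replicates 1, 2 and 3, so each library followed its label and replicate 2 held the highest remaining level. A normalized count is the authors' read count after scaling between libraries, and depth cannot be read from it. The genes of a library summed to between 17949889 and 21175836 normalized counts in control and between 5527104 and 8981107 in Ptf1a cKO, because 34 acinar genes made up 79.8 to 82.6% of that sum in control and 42.4 to 66.2% in Ptf1a cKO. On the authors' scale the log2 fold changes of all genes had a median of 0.036, whereas scaling every library to the same total moved it to 1.49. Directions below are on the authors' scale, and each negative change that turns positive at equal totals is named as such. At equal totals 9590 genes were higher and 129 lower, so the counts of each list on that scale are given beside those on the authors' scale. Every gene of the table reached 27.6 normalized counts in at least 1 library, so a gene whose control values were all below that entered through Ptf1a cKO alone and by that had at least 1 value there above control; 530 genes were of this kind, Fgl1 among them as the 1 case in the 8. In whole tissue, fewer cells of a type and less RNA per cell cannot be told apart. P-values below come from limma over all 10245 genes, were adjusted by the Benjamini-Hochberg method, and were read against a threshold of 0.05.

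Ttr had the highest mean of the 8 genes in Ptf1a cKO. It stood at 1109, 1937 and 1392 normalized counts in control and at 92771, 13129 and 86790 in Ptf1a cKO. The groups did not overlap, and the lowest Ptf1a cKO value was 6.78 times the highest control value. The means were 1479 ± 421 (SD, n = 3) and 64230 ± 44356 (SD, n = 3), a log2 fold change of 5.03, and 11 genes of the table had a log2 fold change of that size or more. Replicate 2 was far below the other Ptf1a cKO libraries: it was 8.87 times the control mean, and replicates 1 and 3 were 62.7 and 58.7 times that mean. Without replicate 2 the log2 fold change of Ttr was 5.96. The highest Ptf1a cKO value was 7.07 times the lowest, a ratio that 0.966% of all genes reached or passed, against a median over all genes of 1.26. Ttr took up 0.00524 to 0.00921% of a control library's gene total and 1.30, 0.146 and 1.57% of that of the Ptf1a cKO libraries. Ttr lies on chromosome 18 (GRCm38, 20665280 to 20674321, plus strand) and its principal transcript has 4 exons.

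**Figure D1:**
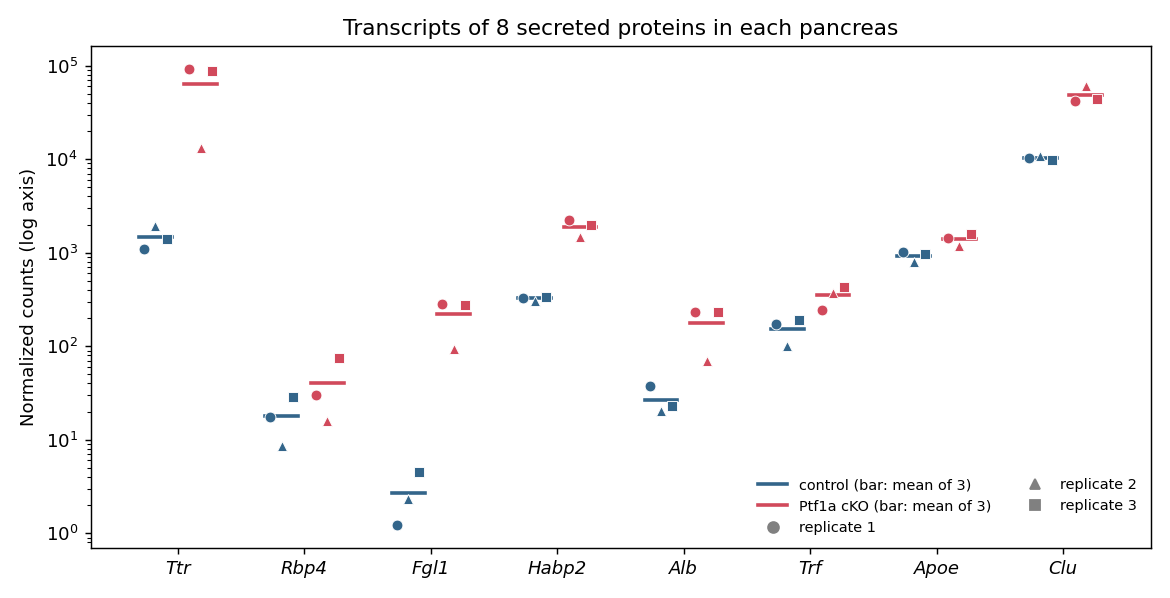
Normalized counts on a log axis for each of the 8 genes in 3 control (blue) and 3 Ptf1a cKO (red) pancreata; symbols mark the replicate number and bars the group mean. In 7 of the 8 genes every red symbol lies above every blue one, Rbp4 being the exception, and the triangle of Ptf1a cKO replicate 2 is the lowest red symbol in 6 of them.

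Rbp4, whose protein travels in plasma bound to transthyretin, did not share the pattern of Ttr. It was low in every library, at 17.3, 8.52 and 28.5 normalized counts in control and 29.8, 15.8 and 74.8 in Ptf1a cKO. The groups overlapped, with Ptf1a cKO replicate 2 below the control mean, and the log2 fold change of 0.89 ranged from 0.34 without Ptf1a cKO replicate 3 to 1.36 without replicate 2. Within a library Ttr was 48.9 to 227 times Rbp4 in control and 829 to 3117 times Rbp4 in Ptf1a cKO, counted as normalized counts without correction for length. Genes of retinoid and thyroid hormone handling were read beside them. Of 35 listed, 15 had an entry, 4 were higher and 4 lower in Ptf1a cKO (14 and 0 at equal totals), and their median log2 fold change was 0.24. Over all genes 17.1% were higher and 16.8% lower past the threshold, the background for this and every following list. The thyroid hormone receptor gene Thra rose by 0.56 on the log2 scale (adjusted p = 0.0155, limma), from 183 ± 30.7 to 270 ± 24.7 (SD, n = 3). Its relative Thrb fell by 0.58 (adjusted p = 0.0102) but was higher by 0.88 at equal totals. The retinoid dehydrogenase genes Rdh11 and Dhrs3 fell by 0.99 (adjusted p = 0.00159) and 0.89 (adjusted p = 3.56e-04), and both were higher at equal totals. The retinoic acid receptor gene Rarg and the endocytic receptor gene Lrp1 rose by 0.53 (adjusted p = 0.0403) and 0.76 (adjusted p = 0.0116). The calls of Rarg, Thra and Lrp1 were lost in 4, 2 and 1 of the 6 fits that left out a library. Of this list, 2 genes were higher without control replicate 1 or Ptf1a cKO replicate 3, and 1 without control replicate 2.

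Fgl1 went from the bottom of the table to a clear level. It was at 1.23, 2.33 and 4.48 normalized counts in control and at 286, 93.4 and 278 in Ptf1a cKO. The lowest Ptf1a cKO value was 20.9 times the highest control value, and replicate 2 was again below the other 2. The means were 2.68 ± 1.65 and 219 ± 109 (SD, n = 3), with a log2 fold change of 5.06, or 5.58 without Ptf1a cKO replicate 2. The control values were about as small as the pseudocount, which equals 3.41 normalized counts, so this log2 fold change depended on it and was 5.98 with a pseudocount of 0.05 and 3.69 with 1 in place of 0.25. Fgl1 lies on chromosome 8 (GRCm38, 41191434 to 41215156, minus strand) and has 8 exons. Of 22 genes for other secreted proteins with a fibrinogen-like domain, and for LAG3, 8 had an entry, and Lag3 and the fibrinogen chain genes Fga, Fgb and Fgg were not among them. Of the 8, 2 were higher and 2 lower (6 and 0 at equal totals). Fgl2, itself a secreted or membrane-bound immune regulator, fell by 1.73 (adjusted p = 5.15e-04, limma), from 961 ± 189 to 291 ± 81.4 (SD, n = 3), a change of -0.24 at equal totals that was not called. Angptl1, an angiopoietin-like factor, fell by 1.20 (adjusted p = 0.0314) but was higher by 0.22 at equal totals. The ficolin gene Fcna and the tenascin gene Tnxb rose by 0.88 (adjusted p = 0.0273) and 0.72 (adjusted p = 0.0333), and their calls were lost in 4 and 5 of the 6 fits that left out a library. Leaving out control replicate 2 or 3 or Ptf1a cKO replicate 2 or 3 left 1 of the 8 lower, Fgl2.

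Habp2 was more even among the Ptf1a cKO libraries than Ttr and Fgl1. It was at 332, 307 and 339 normalized counts in control and at 2230, 1481 and 1998 in Ptf1a cKO. The groups did not overlap, replicate 2 was the lowest of the Ptf1a cKO libraries, and the highest of them was 1.51 times the lowest. The means were 326 ± 16.5 and 1903 ± 383 (SD, n = 3), with a log2 fold change of 2.51, or 2.68 without replicate 2. An exon of Habp2 overlaps one of Nrap on the other strand, and the sources used here do not say whether strand was used in counting. The 250 bases before its RefSeq start are printed beside those of Alb, the textbook liver promoter, because both genes were higher in Ptf1a cKO and both stretches hold the C/EBP letters TTGCNNAA on 1 of the strands, shown in capitals. They lie on the plus strand of GRCm38.p6 at chr19:56287662-56287911 and chr5:90460620-90460869 and are written 5′ to 3′. The GENCODE annotation starts Habp2 farther upstream, at 56287137, so the stretch of Habp2 lies inside the gene by that annotation.
Habp2: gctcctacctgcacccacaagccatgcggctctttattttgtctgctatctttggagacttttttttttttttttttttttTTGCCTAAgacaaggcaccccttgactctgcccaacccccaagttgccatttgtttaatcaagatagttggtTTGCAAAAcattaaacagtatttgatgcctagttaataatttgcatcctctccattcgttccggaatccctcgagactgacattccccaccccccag
Alb: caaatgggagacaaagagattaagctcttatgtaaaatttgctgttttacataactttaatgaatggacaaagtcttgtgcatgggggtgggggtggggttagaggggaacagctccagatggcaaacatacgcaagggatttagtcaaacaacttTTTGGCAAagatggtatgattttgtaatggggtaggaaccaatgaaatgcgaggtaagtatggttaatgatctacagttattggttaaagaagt

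The C/EBP letters matched at 2 places before Habp2 (-169 to -162 and -97 to -90, plus strand) and at 1 place before Alb (-94 to -87, minus strand). A search on both strands found them in 9.56% of 32851 promoter stretches of the same length. The forkhead letters TGTTTGC were found before Alb (-128 to -122, minus strand) and in 4.30% of all, TGTTTAC was found before neither gene and in 3.17% of all, and neither held the HNF4 letters CAAAGTCCA, found in 0.384%, or the STAT letters TTCNNNGAA, found in 7.02%. Of the 2 letter strings searched for PTF1 sites, CATCTG was found before Alb (-134 to -129, minus strand) and in 14.4% of all, and TTTCCC before neither and in 21.9%. In the stretches of Rbp4 and Apoe, TTGCNNAA was found before 1 of the 2 starts of Rbp4 and before none of the 3 starts of Apoe. A start of Rbp4 also had TGTTTAC before it, and a start of Apoe had TTTCCC. Habp2 and Alb were printed for holding TTGCNNAA, so its presence in both is not a result. These are matches of letters and not binding sites.

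The factors that use such sites were counted next. Of 25 transcription factors known for liver-type promoters, 16 had an entry, 2 were higher and 5 lower in Ptf1a cKO (12 and 0 at equal totals). The median over the 16 was -0.22 on the log2 scale and turned positive at equal totals. Leaving out control replicate 1, control replicate 2 or Ptf1a cKO replicate 3 left 1 of them higher, Hnf4a. Hnf4a, a nuclear receptor central to hepatocyte identity, rose by 0.61 (adjusted p = 0.0101, limma), from 269, 284 and 363 normalized counts to 473, 421 and 497. Cebpd, induced in acute phase responses, rose by 0.81 (adjusted p = 0.0226). Cebpa, a C/EBP factor of liver and fat, fell by 1.35 (adjusted p = 1.54e-04) and the nuclear receptor gene Nr5a2 fell by 1.05 (adjusted p = 3.08e-04), and both were higher at equal totals. Ppara, a fatty acid sensor, fell by 1.48 (adjusted p = 2.46e-04), which came to -0.05 at equal totals. Foxa2 and Foxa3, forkhead factors of liver and pancreas, were present and not called, with log2 fold changes of -0.39 (adjusted p = 0.0819) and -0.30 (adjusted p = 0.169) that were 1.10 and 1.18 at equal totals. Foxa2 and Foxa3 were named after their values were seen.

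Genes around HABP2, covering hyaluronan and the proteases and inhibitors of plasminogen activation and coagulation, were read next. Of 36 listed, 17 had an entry, 5 were higher and 1 lower (16 and 0 at equal totals), and the median over the 17 was 0.27 on the log2 scale. Of these, 3 were higher without control replicate 2, and 2 were lower without Ptf1a cKO replicate 2. The hyaluronan-binding proteoglycan gene Vcan rose by 1.14 (adjusted p = 0.0127, limma), from 19.3 ± 2.29 to 48.0 ± 14.3 (SD, n = 3), and entered the table through Ptf1a cKO alone. The hyaluronan receptor gene Cd44 rose by 0.93 (adjusted p = 0.0147) and the C1 inhibitor gene Serping1 by 0.82 (adjusted p = 0.0129). The call of Cd44 was lost in 2 of the 6 fits that left out a library. Spint1, which encodes an inhibitor of the hepatocyte growth factor activator, fell by 1.21 (adjusted p = 3.88e-04) but was higher by 0.28 at equal totals.

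Alb and Trf encode the plasma carriers albumin and transferrin. Alb was at 37.8, 20.1 and 22.7 normalized counts in control and at 233, 68.9 and 230 in Ptf1a cKO, with replicate 2 again the lowest of its group and 1.82 times the highest control value. Its log2 fold change was 2.43, and 3.00 without replicate 2. Trf was at 174, 99.7 and 190 in control and at 247, 374 and 431 in Ptf1a cKO, a log2 fold change of 1.18, and here replicate 1 was the lowest. An exon of Trf overlaps a predicted gene on the same strand. Among 20 genes of iron uptake, storage and export, 14 had an entry, 2 were higher and 4 lower (13 and 0 at equal totals). The copper-binding ferroxidase gene Cp rose by 1.05 (adjusted p = 5.05e-04, limma) and the metalloreductase gene Steap4 by 1.33 (adjusted p = 0.00316). Tfrc, the receptor that takes up transferrin, fell by 1.63 (adjusted p = 4.27e-04), from 262 ± 57.9 to 81.4 ± 14.7 (SD, n = 3), a change of -0.17 at equal totals. The ferritin chain genes Ftl1 and Fth1 fell by 0.70 (adjusted p = 0.00563) and 0.43 (adjusted p = 0.0494), and both were higher at equal totals. Of this list, 2 genes were lower without control replicate 1 or 2, and 4 were higher without Ptf1a cKO replicate 2. The call of Fth1 was lost in 5 of the 6 fits that left out a library.

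Apoe and Clu encode lipid-carrying apolipoproteins that many tissues besides liver make. Apoe moved least, from 1013, 805 and 973 normalized counts to 1430, 1173 and 1593, a log2 fold change of 0.58, with the lowest Ptf1a cKO value 1.16 times the highest control value. Clu, a secreted chaperone, was at 10324, 10793 and 9918 in control and at 42221, 60992 and 43796 in Ptf1a cKO. Its log2 fold change was 2.22, and it was the 1 gene of the 8 whose highest value came from Ptf1a cKO replicate 2. Of 28 genes of lipoprotein assembly, uptake and efflux, 17 had an entry, 6 were higher and 3 lower (16 and 0 at equal totals), and 3 were higher without control replicate 2. Apod, a lipocalin-type apolipoprotein, rose by 2.73 (adjusted p = 1.13e-04, limma), from 17.4 ± 3.04 to 138 ± 38.1 (SD, n = 3), having entered through Ptf1a cKO alone, and the phospholipid transfer protein gene Pltp by 1.21 (adjusted p = 0.00504). The receptor genes Vldlr and Scarb1 fell by 0.87 (adjusted p = 0.00127) and 0.85 (adjusted p = 0.00143), and each was higher by 0.62 at equal totals.

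Among all 8 genes, 7 had every Ptf1a cKO value above every control value, a state shared by 26.5% of all genes, and nothing is read from this count because the comparison chose the genes. Replicate 2 gave the lowest Ptf1a cKO value in 6 of the 8, against 34.3% of all genes and 53.8% of the genes higher in Ptf1a cKO past the threshold. Levels of different genes were compared as normalized counts per kb of the principal transcript. In control the order was Clu at 5715 per kb, Ttr at 1247, Apoe at 661, Habp2 at 116, Trf at 60.2, Rbp4 at 19.3, Alb at 13.2 and Fgl1 at 2.39, and of these neighbours only the ranges of Rbp4 and Alb overlapped. In Ptf1a cKO the order was Ttr at 54157 per kb, Clu at 27074, Apoe at 993, Habp2 at 676, Fgl1 at 195, Trf at 136, Alb at 87.2 and Rbp4 at 42.8. There the ranges of Ttr and Clu overlapped, as did those of Fgl1 and Trf, Trf and Alb, and Alb and Rbp4. Among 10164 genes with a length, Ttr moved from rank 137 to rank 22, Habp2 from 2031 to 200 and Fgl1 from 10068 to 1007. Alb, the most abundant secreted product of hepatocytes, moved from rank 8340 to rank 2635.

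**Figure D2:**
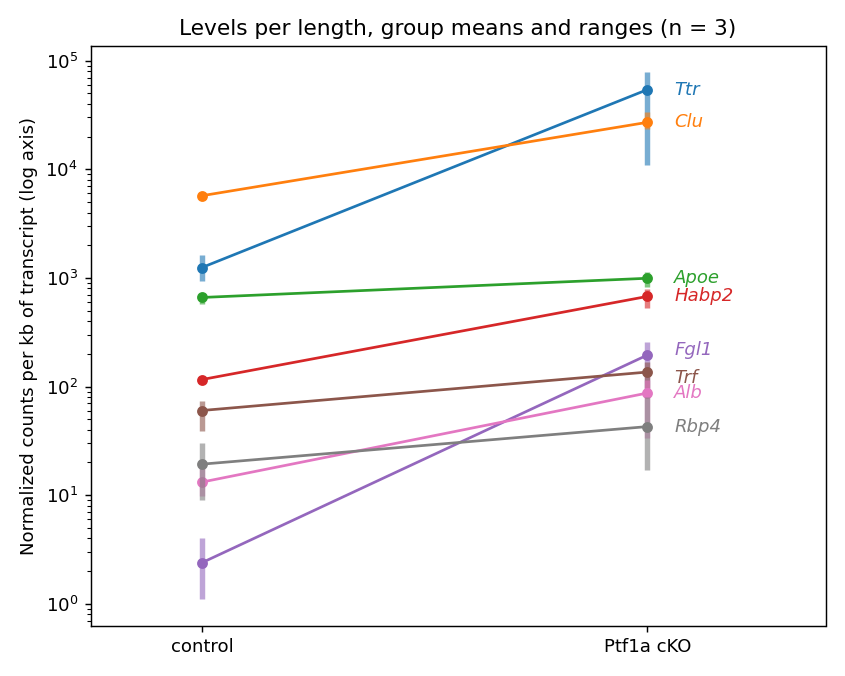
Mean normalized counts per kb of transcript on a log axis for the 8 genes in control and Ptf1a cKO pancreata, with vertical bars from the lowest to the highest of 3 libraries. Ttr passes Clu, and Fgl1 goes from the lowest of the 8 in control to the fifth in Ptf1a cKO.

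Other plasma proteins were counted from a list of 97 made mainly by hepatocytes, none of them among the 10 genes. Of these, 30 had an entry, 20 were higher and 3 lower in Ptf1a cKO, against 17.1% and 16.8% of all genes, and 27 higher and 1 lower at equal totals. Their median log2 fold change was 1.10. Of the 30, 6 entered the table through Ptf1a cKO alone, 3 of them among the 20, so the count and the median are a description. The zinc-binding glycoprotein gene Azgp1 rose by 3.83 (adjusted p = 6.33e-04, limma) and the complement factor I gene Cfi by 3.71 (adjusted p = 9.45e-04), both from control values near the bottom of the table, so that they entered through Ptf1a cKO alone. The selenium carrier gene Sepp1 rose by 2.29 (adjusted p = 9.09e-05), from 2705 ± 316 to 13349 ± 2928 (SD, n = 3). The vitronectin gene Vtn fell by 3.41 (adjusted p = 4.48e-05), from 3233 ± 424 to 314 ± 110. The cholesterol-esterifying enzyme gene Lcat fell by 1.46 (adjusted p = 1.24e-04), a change of -0.01 at equal totals. The fetuin gene Fetub fell by 1.01 (adjusted p = 0.00257) but was higher by 0.40 at equal totals. Of 37 genes of IL-6 family receptors, STAT3 and the acute phase, 19 had an entry, 2 were higher and 5 lower (17 and 1 at equal totals). The serpin gene Serpina3n rose by 2.11 (adjusted p = 0.0290), and its call was lost in 3 of the 6 fits that left out a library. Of this list, 1 gene was higher without control replicate 1, 0 without control replicate 2 or Ptf1a cKO replicate 3, and 4 when Ptf1a cKO replicate 2 was left out. The interleukin receptor gene Il22ra1 fell by 3.06 (adjusted p = 6.57e-04). Lifr and Cebpb fell by 0.90 (adjusted p = 0.00204) and 0.96 (adjusted p = 0.00437), and both were higher at equal totals.

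**Figure D3:**
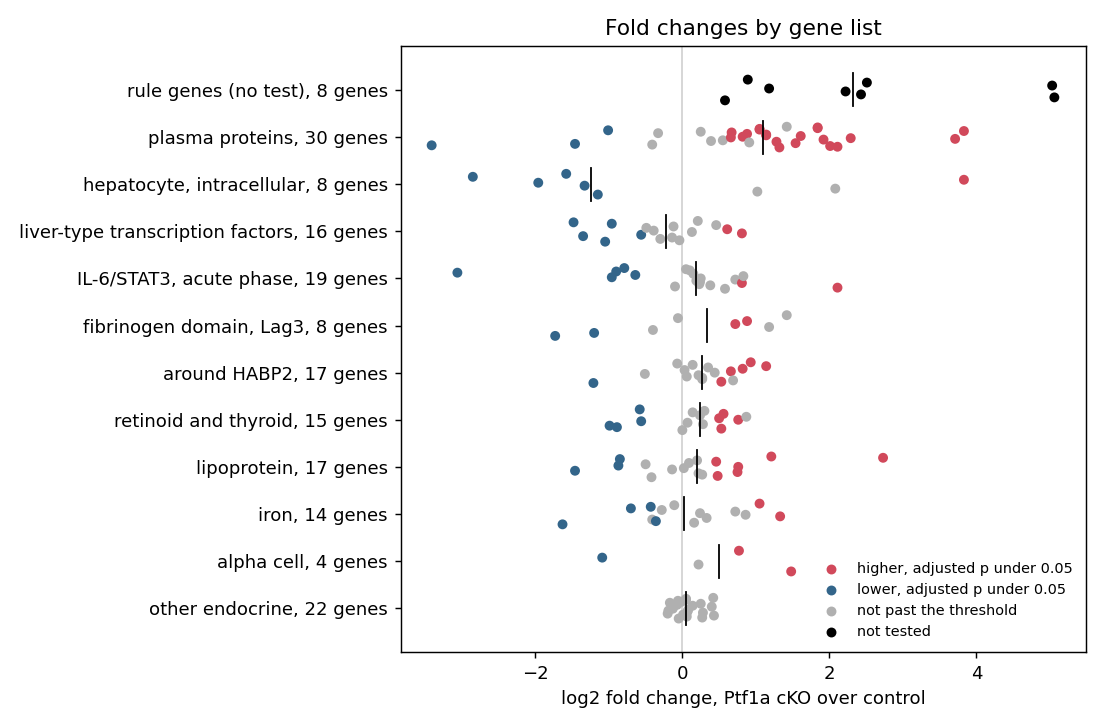
Log2 fold change of Ptf1a cKO over control for each gene with an entry, by list; red and blue points passed an adjusted p of 0.05 in limma, grey points did not, black points are the 8 genes of the rule, which were not tested, and the short vertical lines are medians. The plasma proteins lie mostly to the right with a median of 1.10, and the hepatocyte enzymes mostly to the left with a median of -1.24.

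Markers of hepatocytes that stay inside the cell were read beside the secreted proteins. Of 42 such enzymes, transporters and receptors, 8 had an entry, and the urea cycle genes Cps1 and Otc and the uptake transporter genes Slc10a1 and Slco1b2 were not among them. Of the 8, 1 was higher and 5 lower (2 and 1 at equal totals); 3 were lower without control replicate 1 or 2, and 2 higher without Ptf1a cKO replicate 1. Their summed level was 5925 to 7760 normalized counts in control and 2220 to 3633 in Ptf1a cKO, or 0.0324 to 0.0369% and 0.0363 to 0.0405% of a library's gene total. Mat1a and Gnmt, enzymes of methionine and glycine metabolism that lay between 1181 and 1941 normalized counts in the control libraries, fell by 2.85 (adjusted p = 1.68e-05, limma) and 1.96 (adjusted p = 3.63e-04), changes of -1.37 and -0.47 at equal totals.

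Islet markers were read because mouse alpha cells make Ttr. Of 11 alpha cell markers, 4 had an entry. Gcg, the glucagon gene, was at 1287, 1871 and 3113 normalized counts in control and at 3942, 521 and 5796 in Ptf1a cKO, so the groups overlapped, and its log2 fold change of 0.22 was not called (adjusted p = 0.841, limma). Of the 4, 2 were higher and 1 lower (3 and 0 at equal totals). Tm4sf4, a tetraspanin-like membrane protein gene, rose by 0.77 (adjusted p = 0.0234), a call kept only when Ptf1a cKO replicate 2 was the library left out. Slc7a2, an arginine transporter gene, fell by 1.09 (adjusted p = 0.00183) but was higher by 0.38 at equal totals. Of 27 other endocrine markers, 22 had an entry and limma called 0 of them, 0 at an unadjusted p under 0.05 as well, whereas all 22 were higher at equal totals. All 22 had their lowest Ptf1a cKO value in replicate 2, the library in which Ttr, Fgl1, Habp2 and Alb were lowest too, and without that library 8 of the 22 were higher. Ins2, the main insulin gene, was at 5871, 5179 and 24002 in control and at 12421, 2900 and 14113 in Ptf1a cKO. The summed level of the 22 ran from 10896 to 42900 in control and from 6014 to 30916 in Ptf1a cKO. The ratio of Ttr to Gcg within a library, which no scaling can change, was 0.861, 1.04 and 0.447 in control and 23.5, 25.2 and 15.0 in Ptf1a cKO, so it was similar in replicate 2 and in the other Ptf1a cKO libraries. This ratio was chosen after the values were seen and holds the values that chose Ttr, so it is a description. The part of islet content in the level of Ttr was not tested.

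Lists of other cell types were summed in the same way. Among macrophage markers 12 of 13 were higher and their sum went from 730 to 1251 in control to 1964 to 3338 in Ptf1a cKO. Among fibroblast markers 12 of 14 were higher (3307 to 3784 against 6444 to 11255), among ductal markers 8 of 13 (5954 to 6674 against 28714 to 112496, or 4427 to 4715 against 7156 to 7743 without Spp1), among gastric chief cell markers 6 of 8 (10162 to 14334 against 200649 to 551307) and among adipocyte markers 1 of 7, with sums that overlapped (233 to 608 against 406 to 1521). At equal totals all genes of these lists were higher. Of the ductal markers, 3 entered the table through Ptf1a cKO alone, and all 3 were among the 8 higher. So did 2 macrophage markers, 1 of them higher, and 3 adipocyte markers, 1 of them higher. Among chief cell markers 1 entered in this way and was not called higher. These counts are therefore a description. Leaving out control replicate 2 or Ptf1a cKO replicate 1 left 5 ductal markers higher, and leaving out the latter made it 2 adipocyte markers. No gene of the table could be at 0 in every library, since each reached 27.6 normalized counts in at least 1. Their part in the levels of the 8 genes was not tested.

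The genes whose profiles over the 6 libraries were most like those of Ttr, Fgl1 and Habp2 were found by the root mean square (RMS) difference of log2 values, each gene centred on its own mean, among 10237 genes. Nearest to Ttr was Spp1, the gene of the secreted phosphoprotein osteopontin, at an RMS difference of 0.31. Spp1 was at 1677, 1959 and 1327 normalized counts in control and at 87512, 20971 and 105340 in Ptf1a cKO, so it shared both the range of Ttr and the low value in replicate 2. The ratio of Ttr to Spp1 stayed between 0.626 and 1.06 in the 6 libraries. The next for Ttr were Ppp1r3a, Ifi27l2b, 2210407C18Rik and Gcnt3, at 0.65 to 0.74. Nearest to Fgl1 were 2210407C18Rik at 0.31, Ifi27l2b at 0.38, Spp1 at 0.42, Gcnt3 at 0.49 and Vsig2 at 0.51, and in control 2210407C18Rik had the same low values as Fgl1. Nearest to Habp2 were Ly6e and Pigr at 0.17, Furin and AA986860 at 0.19 and Mecom at 0.20. Pigr, the receptor that carries immunoglobulin across epithelia, went from 117 to 154 normalized counts in control to 650 to 1049 in Ptf1a cKO. Furin, a protease that matures secreted proteins, went from 1039 to 1053 to between 3502 and 5643, lowest in replicate 2 as was Habp2. Likeness over 6 libraries in 2 groups is a description, since any gene with a similar difference between the groups comes near.

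**Figure D4:**
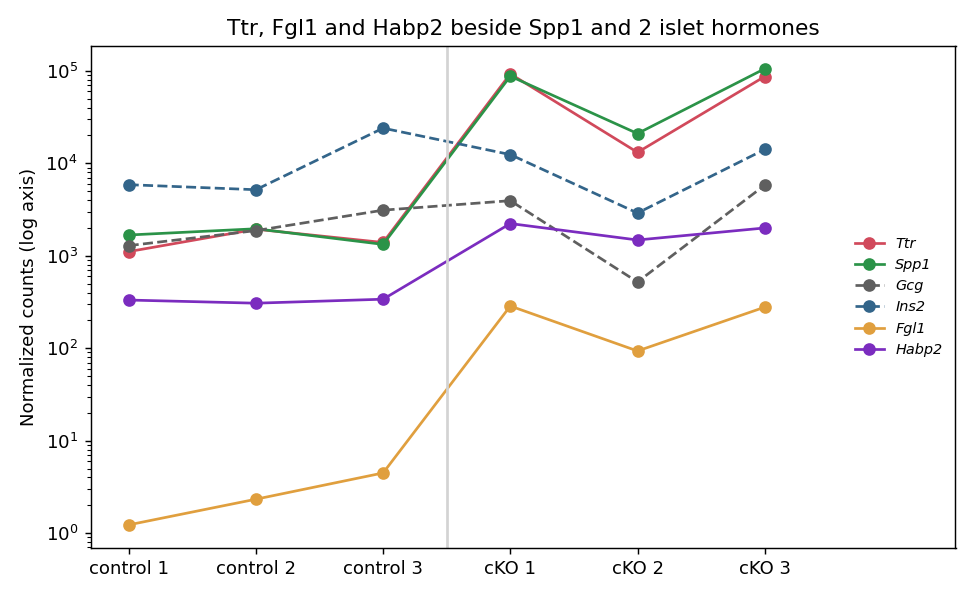
Normalized counts on a log axis in each of the 6 pancreata for Ttr, Fgl1 and Habp2, for Spp1, and for the islet hormone genes Gcg and Ins2 (dashed); lines join the values of a gene and replicates have no order. Ttr and Spp1 lie together in all 6 libraries, and all 6 genes are at their lowest Ptf1a cKO value in replicate 2.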

How the data were processed

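RNA of whole pancreas was sequenced by the authors, 1 library per mouse. Per the labels, TopHat2 2.0.4, Bowtie 0.12.7.0, SAMtools 0.1.18.0 and HTSeq 0.6.0 were used with the mm9 build, and the authors normalized with edgeR. The authors deposited a single table of normalized counts, a signal with decimals from which whole reads could not be recovered. Count models were therefore not run, and depth cannot be read from the values. The study's methods give the number of uniquely aligned reads per library, which was not used here. A further 3 entries that name no gene, 75.7 to 82.6% of each library's sum, were left out. The n of 3 mice per group limits precision.

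Values were divided by 13.6393, 0.25 was added, and log2 was taken; fold changes on this scale understate those of low genes. limma 3.58.1 (lmFit, eBayes with trend, no covariate; R 4.3.3) was fitted to all 10245 genes, two-sided, after tests on simulated data. A minimum mean of 0.25 removed 0 genes. Python 3.11.15 was used for the rest. Positions and transcript lengths came from GENCODE mouse release M21 (GRCm38, not the mm9 of the files). Promoters came from RefSeq (GRCm38.p6), which held 4 of the 8 genes and was read without chromosome 18. The named genes were the 10 of the rule, up to 3 largest rises and falls past the threshold in a list, the first markers of hepatocyte and islet lists, the 5 nearest profiles and Ptf1a. Members and lists were chosen with earlier results of these data known. Some genes of the lists are counted but not reported here. Alternatives were other pseudocounts, filters, scalings, fits, sex as a covariate, the replicate number as a block, and leaving out each library.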

Additional observations from a re-analysis of the deposited data

How the results depend on the processing

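With every library scaled to the same total, the number of genes that differed went from 3475 to 9719, list genes called went to 222, and the log2 fold changes of Ttr, Fgl1 and Habp2 went to 6.53, 6.19 and 4.00. Pseudocounts of 0.05 and 1 gave 5.98 and 3.69 for Fgl1, and each kept 9 of the 15 nearest profiles. Genes named in the text that pointed down and then up at equal totals were Angptl1 (0.22), Cebpa (0.13), Cebpb (0.45), Dhrs3 (0.60), Fetub (0.40), Fth1 (1.06), Ftl1 (0.80), Lifr (0.59), Nr5a2 (0.43), Rdh11 (0.43), Scarb1 (0.62), Slc7a2 (0.38), Spint1 (0.28), Thrb (0.88), Vldlr (0.62), Foxa2 (1.10), Foxa3 (1.18) and Ins2 (1.32; 0.03 without the acinar genes in the total). This follows from the scaling, which moved the median of all genes to 1.49.

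Leaving out each library gave 2363 to 3601 genes and 104 to 150 list genes called, 9 to 13 shared nearest profiles, and log2 fold changes of 4.55 to 5.96 for Ttr, 4.79 to 5.58 for Fgl1 and 2.39 to 2.68 for Habp2. Gcg ranged from -0.45 to 1.29 and Ins2 from -0.58 to 0.56. No member reversed under any setting run. Same-numbered libraries correlated in their deviations from the group means at 0.0391, 0.134 and 0.144, and Ptf1a cKO replicate 1 correlated best with control replicate 2, so the numbers were not taken as pairs. With the replicate block 3525 genes differed. Tests for read counts were not run, because whole reads could not be recovered. The 3 mice per group, and the lack of whole reads, limit all values, most of all those of Fgl1 in control.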
